A study of Antirrhinum majus with 21 samples.

Results

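The genes described here are those whose RNA was highest in corollas of magenta snapdragons that carry the dominant ROSEA allele (ROS) and the recessive ELUTA allele (el) of Antirrhinum majus pseudomajus. They were chosen by their measured levels: all 3 libraries of that genotype lay above the 18 libraries of the other genotypes, and the genotype mean was at least 1 CPM, the estimated reads of a gene per 1000000 reads of its library after TMM scaling. Of 37234 genes, 311 met these conditions outside 6 assembly sequences that were left out by the choice, among them the one named after the ROS locus. They were ranked by their margin, the mean of log2(CPM + 0.5) in the pseudomajus genotype minus the highest mean of any other genotype, and the top 150 were kept. Every difference between the pseudomajus genotype and the others is therefore a property of the choice and is given as a description, with no test. The conditions also cap all other libraries below the lowest pseudomajus library, but they do not fix how those libraries order among themselves, and the tests below concern that order.

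RNA was sequenced from the corolla of a bud 5 to 10 mm long, at flower stage 12 to 13, with 1 library per plant and 3 plants for each of 7 genotypes. In whole corollas, fewer cells of a type and less RNA per cell cannot be told apart. The ROSpse_elpse plants (dominant ROS and recessive el of A. m. pseudomajus) were magenta. ROSji7_elji7 (dominant ROS and recessive el of stock line JI7) was also magenta. ROSpse_ELstr (dominant ROS of A. m. pseudomajus, dominant EL of A. m. striatum) and ROSji7_ELstr (dominant ROS of JI7, dominant EL of A. m. striatum) had the eluta phenotype. The rosrec_elpse plants were pale and carried a ROS recombinant, its upstream side from A. m. striatum and its downstream side from A. m. pseudomajus, with the recessive el of A. m. pseudomajus. The white genotypes were rosdor_eldor (recessive alleles of the stock line rosea-dorsea at both loci) and rosstr_ELstr (recessive ros and dominant EL of A. m. striatum). The labels give no zygosity and do not describe the rest of the genome. All 3 ROSpse_elpse plants have IDs that begin with A181, and every other genotype but rosdor_eldor also falls under a single prefix; the labels do not say what the prefix stands for. Prefix and genotype therefore cannot be told apart, except through the 3 rosdor_eldor plants, whose IDs begin with A181 (replicate 1), A174 (replicate 2, the prefix of ROSpse_ELstr) and A182 (replicate 3, the prefix of rosstr_ELstr).

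ROSEA encodes MYB-related transcription factors that switch on the late genes of anthocyanin synthesis in the snapdragon flower, so plants with recessive ros alleles have little magenta pigment. ELUTA, linked to it, confines magenta to part of the corolla when dominant. The files do not pair gene IDs with names, so genes are given by ID, no role can be given to any of them, and the pigment genes and tissue markers could not be looked up to check the label.

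Estimated reads per library ran from 8926585 (rosdor_eldor replicate 1) to 41860890. The biological coefficient of variation of the common dispersion was 0.400. The submitters' library numbers fall into a low series of 5, a middle series of 13 and a high series of 3 libraries, and rosdor_eldor replicate 1 and ROSpse_elpse replicate 1 are both of the low series.

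Margins of the 150 genes ran from 0.57 to 3.55 on the log2(CPM + 0.5) scale, with a median of 1.05. In 84 genes the margin was at least 1, and in 29 it was at least 2. Mean levels in ROSpse_elpse ran from 1.02 to 877 CPM, with a median of 12.0 CPM, against 12.9 CPM over the 24674 genes tested. Of the 150, 68 averaged under 10 CPM, 49 lay between 10 and 100 CPM and 33 had at least 100 CPM. All 150 passed the filter on low counts, but 18 of them had at least 0.5 CPM in fewer than 3 of the 18 other libraries and so passed through ROSpse_elpse. The same conditions applied to each of the other genotypes gave 515 genes for rosrec_elpse, 72 for ROSji7_ELstr, 63 for ROSji7_elji7, 42 for ROSpse_ELstr, 23 for rosstr_ELstr and 3 for rosdor_eldor. A list of this kind was thus obtained for every genotype, and the longest was not that of ROSpse_elpse.

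**Figure D1:**
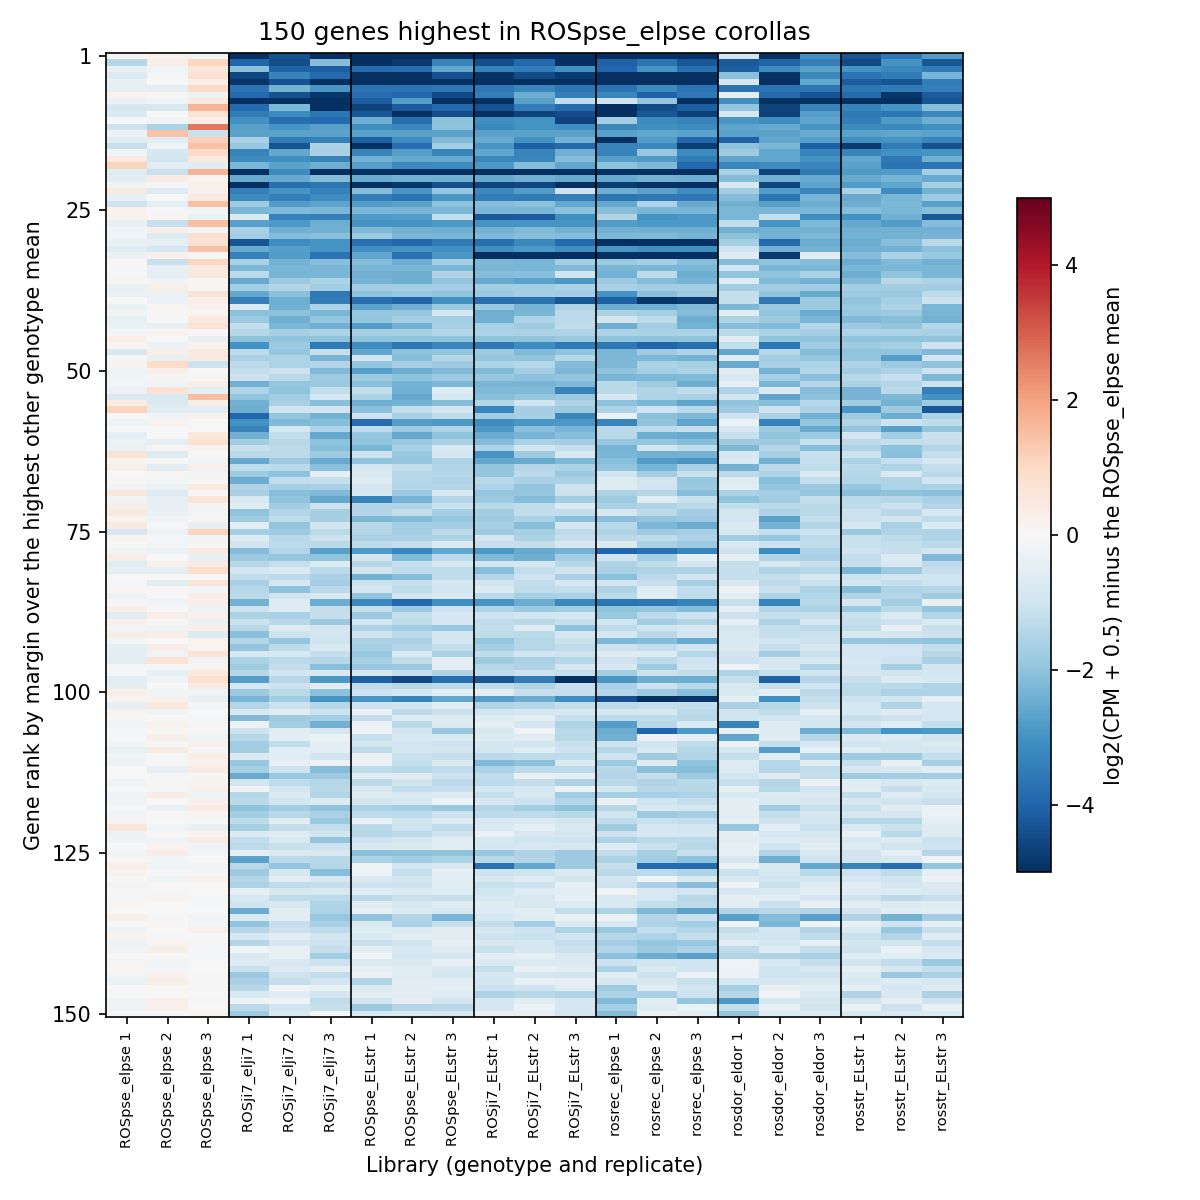
Level of each of the 150 genes (rows, ranked by margin) in each of the 21 libraries (columns, by genotype and replicate), as log2(CPM + 0.5) minus the ROSpse_elpse mean; the colour scale is clipped at 5 units either side of 0. All other libraries are lower by the choice of the genes, and among them rosdor_eldor replicate 1 is palest in many rows.

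The largest margin belonged to AnMG0005041500, placed on scaffold451 (579108 to 581313, minus strand) of the JICv1 assembly. Its 3 ROSpse_elpse libraries had 393, 428 and 327 CPM. The white rosdor_eldor libraries had 204, 3.24 and 44.9 CPM and the white rosstr_ELstr libraries 19.2, 31.8 and 53.5 CPM, whereas the pale rosrec_elpse libraries had 0.766, 0.346 and 0.489 CPM. The magenta ROSji7_elji7 libraries had 10.9, 18.2 and 7.95 CPM. The lowest level was thus in pale corollas, which carry the same el allele, and the nearest levels were in white ones.

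AnMG0002335900 (scaffold311, 59377 to 60361, plus strand) had a similar order. It measured 53.7, 70.0 and 86.6 CPM in ROSpse_elpse, 38.4, 0.635 and 11 CPM in rosdor_eldor and 3.37, 2.96 and 5.64 CPM in rosstr_ELstr, and no more than 0.202 CPM in any rosrec_elpse library. AnMG0001520400 (scaffold121, 111657 to 113166, minus strand) measured 52.6, 79.4 and 144 CPM in ROSpse_elpse, 19.3, 2.32 and 8.70 CPM in rosdor_eldor, 6.13, 6.98 and 16.4 CPM in rosstr_ELstr and 1.09, 1.15 and 2.17 CPM in rosrec_elpse. In each of these genes the 3 rosdor_eldor plants differed from each other by a larger ratio than the 3 plants of ROSpse_elpse or of rosstr_ELstr.

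Other genes with large margins were low in all 6 other genotypes. AnMG0003267100 (scaffold260, 749621 to 751425, plus strand) had 24.9, 85.5 and 143 CPM in ROSpse_elpse, and the highest of the 18 others, a ROSji7_elji7 library, had 14.5 CPM. AnMG0001934200 (scaffold549, 523140 to 523694, plus strand) had 18, 21.0 and 35.1 CPM in ROSpse_elpse, against at most 5.13 CPM elsewhere. AnMG0408555600 (scaffold822, 267161 to 268890, minus strand) had 151, 145 and 199 CPM in ROSpse_elpse, against at most 48.7 CPM elsewhere, in a rosrec_elpse library. The 3 ROSpse_ELstr libraries had 30.0, 11.4 and 38.8 CPM. The 3 ROSji7_elji7 libraries had 19.6, 11.6 and 10.6 CPM and the 3 rosdor_eldor libraries 21.1, 18.4 and 25.9 CPM. In this second kind of gene, rosdor_eldor replicate 1 did not stand out.

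Single libraries stood apart in several of the genes with the largest margins. AnMG0707241700 (scaffold204) had 15.9, 15.1 and 11.6 CPM in ROSpse_elpse and 10.1 CPM in rosdor_eldor replicate 1, while the 17 remaining libraries did not exceed 2.10 CPM. AnMG0006272100 was different, with a wide spread in more than 1 other genotype. It had 56.6, 60.9 and 100.4 CPM in ROSpse_elpse, but 35.0, 18 and 1.06 CPM in rosrec_elpse and 1.22, 10.35 and 29.25 CPM in ROSji7_ELstr. Its best placement, on scaffold1936, had an identity of only 89.95% and overlaps 3 other gene models on its strand. AnMG0001107710 (scaffold828) had 28.6 CPM in ROSpse_elpse replicate 3 and 1.78 and 1.09 CPM in replicates 1 and 2, and its margin of 2.71 became 1.40 without replicate 3. AnMG0006255000 (scaffold1951) had 254 CPM in that replicate, against 42.6 and 44.6 CPM in the others. AnMG0002921300 (scaffold337), with 4.12, 4.01 and 12.1 CPM in ROSpse_elpse, was at most 0.736 CPM elsewhere and had only 53 reads in all 18 other libraries.

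Among the remaining genes, AnMG0002928310 (scaffold928, 101413 to 102999, plus strand) took the most reads, with 475, 489 and 1667 CPM in ROSpse_elpse and a mean of 1703 TPM, the length-scaled unit. Its other libraries ran from 16.7 to 238 CPM. AnMG0206987300 (scaffold25, 48368 to 52265, plus strand) had 530.4, 564 and 374 CPM in ROSpse_elpse, and its nearest library was a rosstr_ELstr one at 345 CPM. AnMG0005151700 (scaffold535) had 383, 414 and 539 CPM in ROSpse_elpse, then 254 CPM in rosdor_eldor replicate 1 and 138 CPM in rosstr_ELstr replicate 3. AnMG0005787200 (scaffold612) averaged 437 ± 40.8 CPM and AnMG0003283500 (scaffold207), which overlaps a gene model on the opposite strand, averaged 404 ± 116 CPM in ROSpse_elpse (SD, n = 3 each).

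ROSpse_elpse replicate 3 was the highest of its genotype in 78 of the 150 genes (52.0%), against 30.7% of all tested genes. It was at least 2 times both of its fellow replicates in 18 genes, while replicates 1 and 2 each were so in 3. Without replicate 3, 675 genes met the conditions and only 65 of the 150 stayed among the top 150. Without replicate 1, 781 genes met them and 98 stayed; without replicate 2, 94 stayed. Leaving out rosdor_eldor replicate 1 raised the number that met them to 474.

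The boundary of the list was gradual. The last genes inside, AnMG0807690910, AnMG0005381600 and AnMG0009068500, had margins of 0.58, 0.58 and 0.57, and the first outside, AnMG0004211800, AnMG0408272700 and AnMG0002554900, had 0.57, 0.57 and 0.57. AnMG0009068500 had 4.54, 4.47 and 5.33 CPM in ROSpse_elpse, while its highest other library, in ROSji7_elji7, had 4.46 CPM.

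**Figure D2:**
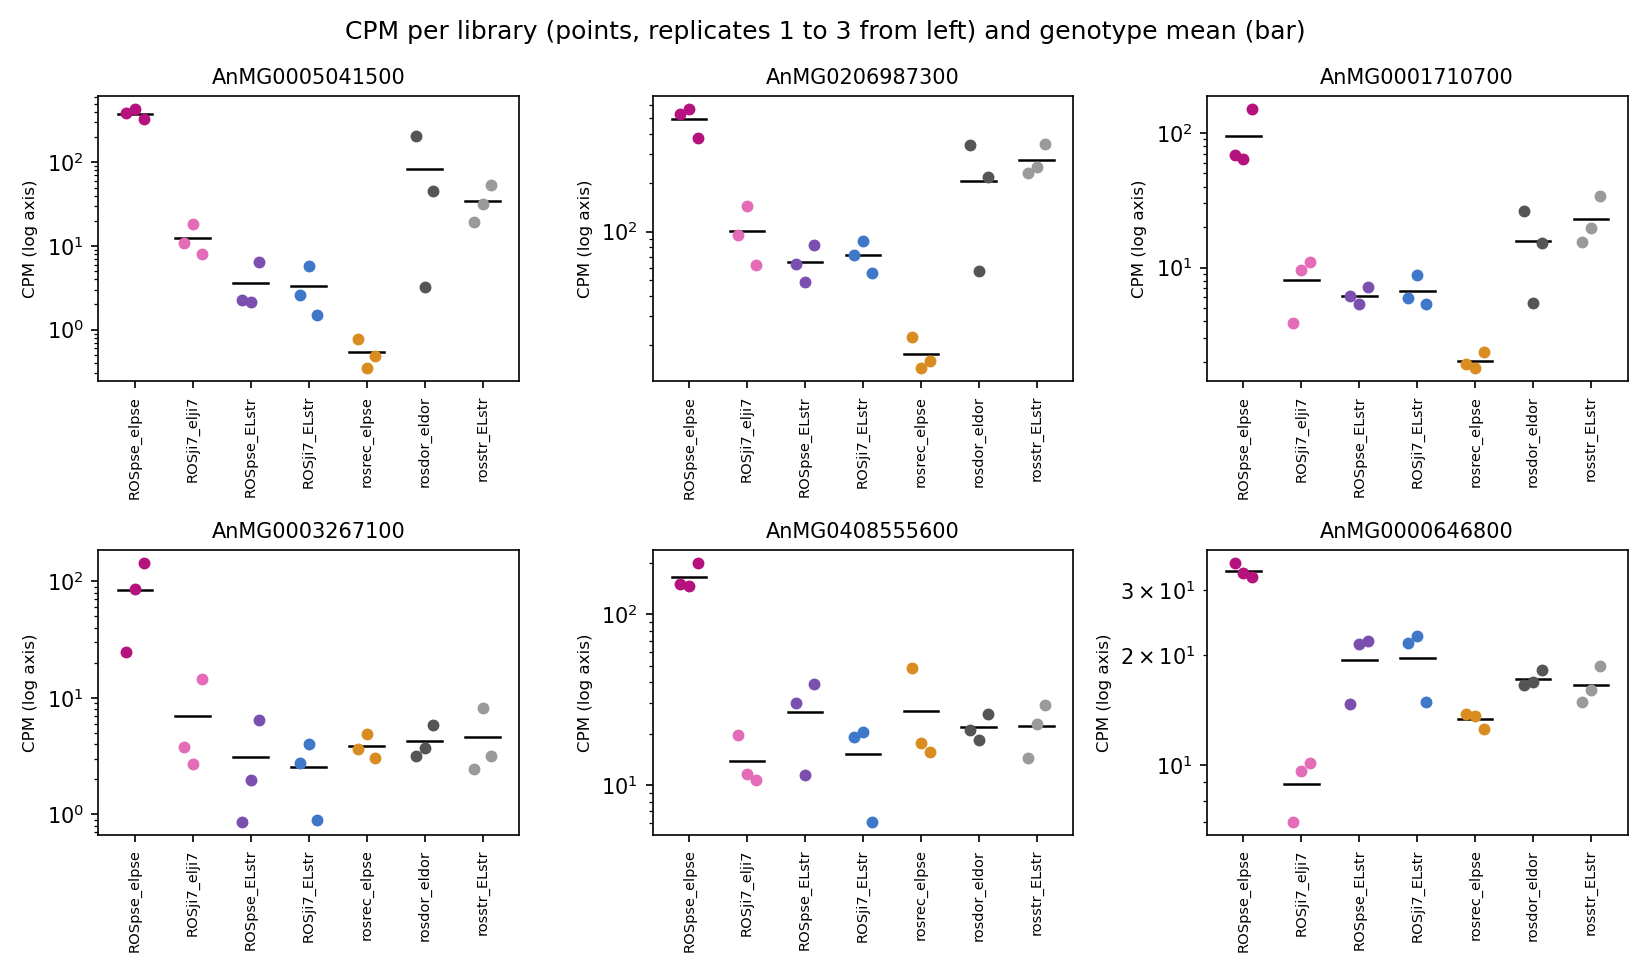
CPM on a log axis in each library (points, replicates 1 to 3 from left) and the genotype mean (bar) for 6 of the genes. In the top row rosrec_elpse is lowest and rosdor_eldor spreads widely, as in AnMG0005041500 (204, 3.24 and 44.9 CPM); in AnMG0003267100 and AnMG0408555600 the other genotypes overlap, and in AnMG0000646800 the 3 ROSji7_elji7 libraries are lowest.

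ROSji7_elji7 against rosdor_eldor sets the other magenta genotype against a white one. The choice had already left out genes as high in ROSji7_elji7 as in ROSpse_elpse, so the comparison cannot show whether magenta corollas share high levels, and rosdor_eldor replicate 1 had a median of 0.31 log2 units above the mean of its fellow plants in these genes. Between these genotypes, none of the 150 genes was called higher and 1 was called lower by edgeR's quasi-likelihood test at an adjusted p under 0.05, against 0.0648% of all tested genes called higher and 0.158% called lower. At an unadjusted p under 0.05, 4 were higher (2.67%, against 5.02% of tested genes) and 25 lower (16.7%, against 5.11%). DESeq2 called 1 higher (0.667%, against 0.503%) and 4 lower (2.67%, against 0.734%). The median log2 fold change was -0.31 for the 150 and 0.03 for all tested genes, and 37.3% of the 150 were positive, against 52.9%. Without the 18 genes that passed the filter through ROSpse_elpse, the median over 132 genes was -0.33 and 34.8% were positive. The gene called was AnMG0000646800 (scaffold699, 482048 to 483452, plus strand), with 6.99, 9.60 and 10.1 CPM in ROSji7_elji7, against 16.6, 16.9 and 18.1 CPM in rosdor_eldor. The libraries did not overlap, and its log2 fold change was -0.95 ± 0.19 (SE, n = 3 each, edgeR adjusted p = 0.0462). The adjusted p ran up to 0.758 over 12 alternatives and the call was lost in 7 of them. No gene of the 150 was called without ROSji7_elji7 replicate 1 or without rosdor_eldor replicate 1 or 3, and 5 were called without rosdor_eldor replicate 2.

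ROSpse_ELstr against rosstr_ELstr sets the pseudomajus ROS allele against the striatum ros allele, both beside the striatum EL allele. Again none of the 150 was called higher and 1 was called lower, against 0.267% and 0.186% of tested genes. The median log2 fold change was -0.05 for the 150 and 0.0045 for all tested genes, and 45.3% of the 150 were positive, against 50.5%. The 5th to 95th percentile ran from -2.665 to 1.815 in the 150, against -0.923 to 1.165 in tested genes. At an unadjusted p under 0.05, 10 were higher (6.67%, against 5.85%) and 30 lower (20.0%, against 5.70%). DESeq2 called 3 higher (2.0%, against 1.67%) and 16 lower (10.7%, against 1.23%). Without the 18 genes that passed the filter through ROSpse_elpse, the median over 132 genes was -0.07. Of these 132, 6.82% were higher and 21.2% lower at an unadjusted p under 0.05. AnMG0002455400 (scaffold1033, 474416 to 477460, plus strand) had 7.85, 5.47 and 9.91 CPM in ROSpse_ELstr, against 62.8, 88.0 and 80.6 CPM in rosstr_ELstr. The groups were far apart, with a log2 fold change of -3.32 ± 0.63 (SE, n = 3 each, edgeR adjusted p = 0.0300). In ROSpse_elpse, with the same ROS allele, the gene had 95.1, 122 and 235 CPM. With the plant ID prefix as a term in the fit, the log2 fold change was -0.64 (edgeR adjusted p = 1.0). That fit held only ROSpse_elpse, ROSpse_ELstr, rosstr_ELstr and rosdor_eldor. It tells prefix from genotype only through the rosdor_eldor plants, 1 per prefix, so it cannot show what part the prefix has in the difference. The call was lost in this fit and in 7 more of 13 alternatives, in which the adjusted p ran up to 1.0. No gene was called with the plant ID prefix or the library number series as a term, without any 1 of the 3 ROSpse_ELstr libraries or without rosstr_ELstr replicate 1 or 2, and 2 were called without rosstr_ELstr replicate 3.

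The pale genotype with the recombinant ROS allele and the el of pseudomajus, set against the white one with both striatum alleles, gave the most calls. In rosrec_elpse 17 of the 150 genes (11.3%) were called lower than in rosstr_ELstr and none higher, against 0.932% and 0.912% of tested genes. Their log2 fold changes ran from -0.86 to -6.08, with a median of -2.72. In all 17 the libraries of the genotypes did not overlap, but a call with 3 libraries per genotype makes this likely. At an unadjusted p under 0.05, 5 genes were higher (3.33%, against 8.55%) and 35 lower (23.3%, against 7.92%). DESeq2 called 1 higher (0.667%, against 3.50%) and 24 lower (16.0%, against 3.02%), including all 17. Over all 150 genes the median log2 fold change was -0.34, and over all tested genes it was 0.000909. All 17 calls were among the 132 genes measured in the other libraries, whose median was -0.41. This comparison shares the rosstr_ELstr libraries with the one before.

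The strongest call was AnMG0206987300, with 22.6, 14.4 and 15.9 CPM in rosrec_elpse, against 231, 251 and 345 CPM in rosstr_ELstr. Its log2 fold change was -3.97 ± 0.50 (SE, n = 3 each, edgeR adjusted p = 0.00109). AnMG0001710700 (scaffold751, 213102 to 216167, plus strand) had 1.92, 1.79 and 2.36 CPM, against 15.4, 19.6 and 34.2 CPM (-3.51 ± 0.54 in log2, edgeR adjusted p = 0.00397). Both genes were lower in rosrec_elpse than in each of the other genotypes, the magenta ones included.

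AnMG0002601000 (scaffold340, 356787 to 359417, plus strand) had 6.40, 3.48 and 3.80 CPM in rosrec_elpse, against 27.8, 35.5 and 54.6 CPM in rosstr_ELstr (log2 change -3.12 ± 0.51, edgeR adjusted p = 0.00594). AnMG0005820200 (scaffold1155, 383870 to 386287, plus strand) had 23.0, 17.5 and 14.7 CPM, against 63.9, 66.1 and 60.4 CPM (log2 change -1.79 ± 0.27, edgeR adjusted p = 0.00365). These 4 genes kept their calls under all 11 alternatives, with adjusted p of at most 0.0408. Of the 17, 9 were still called without rosstr_ELstr replicate 2 or rosrec_elpse replicate 1, 8 without rosstr_ELstr replicate 1, 7 without rosstr_ELstr replicate 3 and 6 without rosrec_elpse replicate 2 or 3. With the library number series as a term in the fit, 8 of the 17 were called. The rosrec_elpse libraries are of the low, high and high series and the rosstr_ELstr libraries of the high, middle and middle series. Series and genotype are therefore partly confounded here. With no middle-series library of rosrec_elpse, this comparison had no fit of that series alone.

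In all 17 genes rosrec_elpse had the lowest mean of the 6 other genotypes, and in 12 rosstr_ELstr had the highest; the call itself pulls both towards these places. Over the whole list, the 17 included, rosrec_elpse was lowest in 50 of 150 genes (33.3%, against 25.6% of tested genes). All 17 are among these 50, so this share does not describe the rest of the list. The highest other mean was that of rosstr_ELstr in 40 genes (26.7%, against 14.1%), 12 of them among the 17. It was that of rosdor_eldor in 31 (20.7%, against 9.38%). These shares exceed those over all tested genes, but the difference was not tested, the highest other mean also entered the ranking, and the rosdor_eldor mean includes its high replicate 1.

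**Figure D3:**
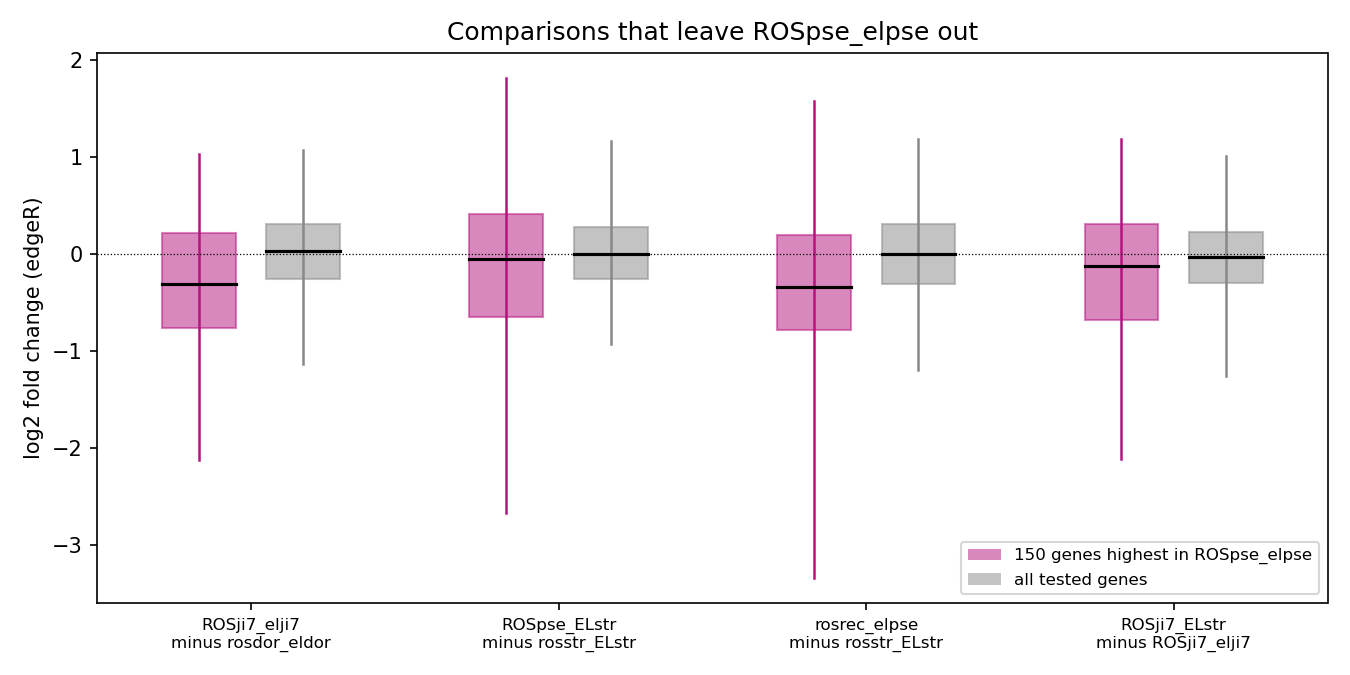
Log2 fold changes in the 4 comparisons that use no ROSpse_elpse library, for the 150 genes (left of each pair) and all 24674 tested genes (right); boxes span the quartiles, black lines are medians and thin lines run from the 5th to the 95th percentile. The median of the 150 genes is -0.34 for rosrec_elpse minus rosstr_ELstr and -0.31 for ROSji7_elji7 minus rosdor_eldor. It is -0.05 for ROSpse_ELstr minus rosstr_ELstr and -0.12 for ROSji7_ELstr minus ROSji7_elji7.

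ROSji7_ELstr against ROSji7_elji7 sets the dominant striatum EL allele against the recessive el of JI7, both beside the JI7 ROS allele, and shares the ROSji7_elji7 libraries with the first comparison. Here 2 of the 150 were called higher and none lower, against 0.0973% and 0.0932% of tested genes. At an unadjusted p under 0.05, 9 were higher (6.00%, against 4.79%) and 12 lower (8.0%, against 5.92%). DESeq2 called 3 higher (2.0%, against 0.815%) and 4 lower (2.67%, against 0.973%). Of the 132 genes measured in the other libraries, 6.82% were higher and 7.58% lower at an unadjusted p under 0.05. AnMG0000646800 had 21.6, 22.5 and 14.9 CPM in ROSji7_ELstr, against 6.99, 9.60 and 10.1 CPM in ROSji7_elji7 (log2 change 1.14 ± 0.19, edgeR adjusted p = 0.0178). AnMG0006295200 (scaffold2918, 18717 to 22169, plus strand), which overlaps a gene model on its own strand, had 14.3, 27.3 and 24.9 CPM, against 5.72, 8.98 and 9.55 CPM (log2 change 1.45 ± 0.26, edgeR adjusted p = 0.0284). Both genes had their lowest mean in the JI7 magenta plants and are, by the choice, highest in the pseudomajus magenta ones, where AnMG0000646800 had 35.6, 33.5 and 32.7 CPM and AnMG0006295200 had 35.9, 33.4 and 36.3 CPM. The calls were lost in 5 and 6 of 12 alternatives, with adjusted p up to 0.266 and 0.32. No gene was called without ROSji7_elji7 replicate 1 or ROSji7_ELstr replicate 2, and 1 was called without ROSji7_ELstr replicate 1 or 3.

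The rosdor_eldor plant that shares the A181 prefix with ROSpse_elpse was, of the 3, nearest to it in median level. Replicate 1 was the highest of the 3 rosdor_eldor libraries in 89 of the 150 genes (59.3%), against 38.1% of tested genes. It was the highest of all 18 other libraries in 42 genes (28.0%), against 9.04% of tested genes. The conditions used the level of the highest of these 18 libraries, so this count is not independent of the choice and is a description only. The median difference of the ROSpse_elpse mean from it was 1.04 on the log2(CPM + 0.5) scale, against 1.60 from replicate 2 and 1.43 from replicate 3. This library has the lowest total and is of the low number series, and the part of either in these counts was not tested. The other low-series libraries were the highest of their genotype in 23.3% (ROSpse_elpse replicate 1), 30.7% (ROSpse_ELstr replicate 1), 40.7% (ROSji7_ELstr replicate 3) and 42.7% (rosrec_elpse replicate 1) of the 150 genes, against 36.8%, 38.0%, 38.3% and 39.9% of tested genes.

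Among the 17 genes lower in rosrec_elpse, the median levels of rosdor_eldor replicates 2 and 3 lay within those of the libraries that share their prefix, and replicate 1 was the highest of the 3 but below all ROSpse_elpse libraries. The median level relative to the ROSpse_elpse mean, in log2 units, was -1.05 in replicate 1 (A181) and -1.61 in replicate 3 (A182), and -3.59 in replicate 2 (A174). It was -1.76, -1.68 and -1.07 in the 3 rosstr_ELstr libraries (A182) and -3.10, -3.64 and -2.91 in the 3 ROSpse_ELstr libraries (A174). The A174 range is not particular to that prefix. It also held the 3 ROSji7_ELstr libraries (A172, -3.47, -3.12 and -3.42) and ROSji7_elji7 replicates 1 and 3 (A183, -2.985 and -2.946). ROSji7_elji7 replicate 2 (-1.83) and the rosrec_elpse libraries (A177, -3.98, -4.02 and -3.78) lay outside it. In 13 of the 17 genes (76.5%) the plants ran replicate 1, 3, 2 from high to low, against 40 of the other 133 genes (30.1%) and 17.3% of tested genes. In 13 of the 17, replicate 2 was nearer the ROSpse_ELstr mean and replicate 3 nearer the rosstr_ELstr mean, against 36.8% of the other 133 and 37.8% of tested genes. AnMG0002601000 is an example, with 50.0, 9.12 and 31.5 CPM in rosdor_eldor replicates 1 to 3, beside 117, 94.8 and 138 CPM in ROSpse_elpse, 7.72, 6.72 and 13.7 CPM in ROSpse_ELstr and 27.8, 35.5 and 54.6 CPM in rosstr_ELstr. AnMG0005820200 was otherwise, with 35.1, 35.1 and 32.4 CPM in the 3 rosdor_eldor plants, below all rosstr_ELstr and ROSpse_ELstr libraries. For the other 133 genes the medians of the 18 libraries lay between -1.65 and -1.03, with rosdor_eldor replicate 1 the highest. Prefix within rosdor_eldor rests on 1 plant each and was not tested for these genes, and the 17 genes were picked on rosstr_ELstr and rosrec_elpse levels. In 14 of the 17 the rosstr_ELstr mean was above the ROSpse_ELstr mean (49.6% of tested genes). In 15 of them rosdor_eldor replicate 3 was above replicate 2 (47.6% of tested genes). The counts of order and of nearer means thus largely restate each other, and the genes, measured in the same plants, are not replicates.

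**Figure D4:**
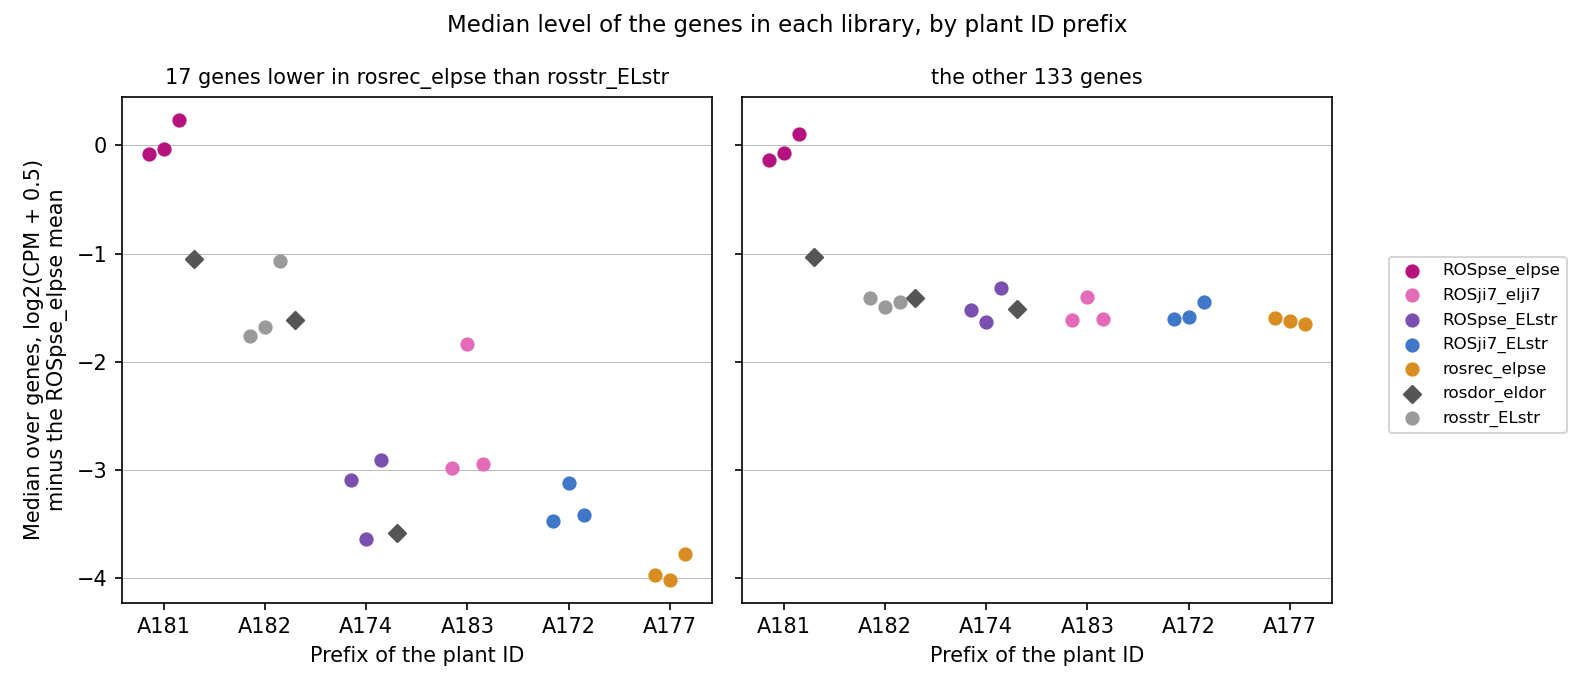
Median over genes of log2(CPM + 0.5) minus the ROSpse_elpse mean in each library, by plant ID prefix, for the 17 genes lower in rosrec_elpse than rosstr_ELstr (left) and the other 133 (right); diamonds are the 3 rosdor_eldor plants. On the left the diamonds lie at -1.05 (A181), -1.61 (A182) and -3.59 (A174), and those of A182 and A174 lie within the range of the circles of their prefix, while that of A181 lies below its circles. The A174 range also holds the circles of A172.

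The 17 genes also varied alike over libraries outside the call, with differences between genotypes included. Over the 12 libraries of the genotypes that are neither ROSpse_elpse nor in the call (ROSji7_elji7, ROSpse_ELstr, ROSji7_ELstr and rosdor_eldor), the median Pearson correlation between pairs of them was 0.75 on the log2 scale, against 0.07 between pairs of the other 133 genes. These points share library and genotype, and the correlation is a description. The other 133 include the 18 genes below 0.5 CPM in most other libraries. The 17 were picked for a call in 1 direction, and no like value is given for genes outside the list.

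The 150 genes were spread over 124 assembly sequences, with at most 3 on any sequence. Another of the 150 lay within 100 kb in 26 cases, which formed 12 groups. Of the placed tested genes outside the list, 7.16% lay within 100 kb of one of the 150, and the difference was not tested. On scaffold121, AnMG0001520400 lay 18509 bases from the overlapping same-strand pair AnMG0006206310 and AnMG0006861500, whose reads may not be fully separable. On scaffold1279, AnMG0004342210 and AnMG0004608910 occupy the same stretch and were placed on 7 and 8 sequences, and AnMG0004342410 beside them on 2, so the separate values of these 3 genes are uncertain. AnMG0004608910 had 1.83, 2.84 and 1.86 CPM in ROSpse_elpse and only 11 reads in the 18 other libraries together.

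On scaffold1617, AnMG0000340700 (73960 to 75254, plus strand) lies 59629 bases from AnMG0000342900 (134883 to 135723, plus strand). It had 32.9, 52.4 and 84.8 CPM in ROSpse_elpse and, like its neighbour, was high in rosdor_eldor replicate 1 (29.3 CPM, then 1.59 and 7.31 CPM in replicates 2 and 3). AnMG0000342900 had 101, 149 and 132 CPM in ROSpse_elpse and 79.3, 3.97 and 86.2 CPM in rosdor_eldor. AnMG0004527800 and AnMG0004529800 on scaffold334 lie 88706 bases apart. AnMG0005820200 and AnMG0005819900 on scaffold1155 lie 13 bases apart on opposite strands, and both are among the 17 genes lower in rosrec_elpse. AnMG0005819900 had 66.6, 41.2 and 30.8 CPM in rosrec_elpse, against 102, 137 and 135 CPM in rosstr_ELstr. Whether counting used strand is not given in the sources used here, so reads from the ends of the pair may be shared.

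Of 1755 tested neighbours within 100 kb that were not in the list, 12 (0.684%) met the conditions on level, against 0.681% of tested genes outside the list. Before the 6 sequences were left out, 317 of the genes tested met the conditions on level (1.28%). Gene models were of usual length, with a median longest transcript of 1403 bases, against 1458 bases over tested genes, and 98 of the 150 (65.3%, against 67.8%) had a single transcript. Of the 52 with several transcripts, 50 had the same most abundant transcript in ROSpse_elpse as in the other libraries, and in 42 that transcript alone had all 3 ROSpse_elpse libraries above the 18 others. Another placed gene was overlapped on the same strand by 37 of the 150 genes and on the opposite strand by 16, where reads may be shared.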

How the data were processed

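Corolla RNA of 21 plants was sequenced as 50 bp single-end reads, 1 library per plant. The submitters' processing notes list Salmon 0.9.1, cutadapt 1.16 and DESeq2 without saying what each did. Each deposited table holds, for 51926 transcripts of 1 library, Salmon's estimated count (an expected count), which is not scaled for depth. TPM, which Salmon scales within a library, stands in another deposited column. A deposited file places transcripts on JICv1, per its file name, with the authors' alignment score, which served only to choose the best placement. No genome, gene name or sequence was used here.

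Transcripts were summed to 37234 genes and rounded. CPM used TMM factors from the 24674 genes that reached 0.5 CPM in 3 or more libraries, and library totals ran from 8926585 to 41860890. edgeR 4.0.16 (R 4.3.3, limma 3.58.1) with its quasi-likelihood F test was fitted once to all 21 libraries, with 1 mean per genotype and Benjamini-Hochberg adjustment over all tested genes; it was tested on simulated data. SE is the absolute log2 fold change over the square root of F. DESeq2 1.42.0, other scalings, filters, terms and omissions were alternatives. The 4 comparisons use no ROSpse_elpse library, but all libraries share 1 dispersion fit.

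Named were the 12 genes with the largest margins, the 5 others with the highest mean CPM, the 3 last inside and first outside the list, up to 4 called per comparison by smallest p, and up to 4 groups within 100 kb of each other with most members. AnMG0005819900 was named after its values were seen. The members, lists, tests and naming rule were chosen with earlier results of these data known. Replicate numbers follow accession order. Each library is a separate plant.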

Additional observations from a re-analysis of the deposited data

How the results depend on the processing

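Alternatives changed 1 choice at a time, with 1 exception. The fit with the plant ID prefix as a term also left out ROSji7_elji7, ROSji7_ELstr and rosrec_elpse. With the middle library number series only, 1559 genes met the conditions on level and 60 of the 150 stayed in the list; leaving out 1 library gave 311 to 781 genes and 65 to 149 shared members. Calls among the 150 depended on the fit. For ROSji7_elji7 minus rosdor_eldor, DESeq2 called 5, and no filter on low counts, the middle series alone and a fit of only the 2 genotypes called 0; leaving out 1 library gave 0 to 5. For ROSpse_ELstr minus rosstr_ELstr, DESeq2 called 19, a fit of only the 2 genotypes 6, and the middle series, the series as a term and the plant ID prefix as a term 0; leaving out 1 library gave 0 to 2. For rosrec_elpse minus rosstr_ELstr, 11 were called with no filter and 8 with the series as a term; leaving out 1 library gave 6 to 10. For ROSji7_ELstr minus ROSji7_elji7, DESeq2 called 7, the series as a term 1, and the middle series and a fit of only the 2 genotypes 0; leaving out 1 library gave 0 to 2. The cause of these changes was not tested, beyond the fewer libraries in some fits. A window of 500 kb put 43 of the 150 near another. Of the recomputed margins of named genes, 267 moved by less than the spread between replicates and 29 by more; of the recomputed fold changes of called genes, 67 kept their call and 26 lost it, and none reversed. TMM over all genes, added after seeing the data, gave 325 genes and 143 shared members. No paired analysis was possible because replicate numbers follow accession order and pair no plants. Depth limits the 18 genes below 0.5 CPM in most other libraries, and 3 plants per genotype limit all calls.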
